A study of Oryctolagus cuniculus with 34 samples.

Results

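The supraspinatus muscle of 4 rabbits was compared between the repaired left shoulder and the right shoulder of the same animal, 1 week after the tendon had been sutured back to the humerus. The genes described are those with more than 1 CPM (counts of a gene scaled to the size of the library) in at least 1 of the 8 libraries of that week. They number 12102, out of 12937 genes tested over the whole series and 23669 genes listed in the count table. All animals were female New Zealand White rabbits, 6 months old at the start. In each left shoulder the supraspinatus tendon was cut from the bone, left detached for 8 weeks and then repaired (group tenotomy_repair), and the right shoulder (group control) carried no tendon injury, although the labels mention a sham cut of the skin there. The repaired muscle has thus been through the detachment, 8 weeks without its insertion and the second operation. No library of a shoulder with tenotomy alone was analysed here, so the effects of tenotomy and of repair cannot be told apart. Rabbits 5, 6, 7 and 8 made up the 1-week group, and values of single libraries are given in that order throughout.

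The supraspinatus is a muscle of the rotator cuff, which starts the lifting of the arm and holds the humeral head in its socket. After its tendon tears, the muscle fibres shrink, connective tissue thickens between them and fat builds up, and much of this persists after the tendon has been reattached. Skeletal muscle draws its energy from mitochondria, where the respiratory chain is built from subunits coded in the nucleus and in the mitochondrial genome, and from glycolysis in fast fibres. The surrounding matrix of collagens, basement membrane and their processing enzymes comes mainly from fibroblasts and fibro-adipogenic progenitors, stromal cells that can also give rise to fat cells. A bulk sample holds all of these cells, so that fewer cells of a type and less RNA per cell cannot be told apart.

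Between 15359593 and 28395188 counts on genes were available per library, and no library of the week duplicated another. Log2 CPM of 2 control libraries correlated across genes at r between 0.981 and 0.985, that of 2 repair libraries at 0.938 to 0.971. Genes are not independent replicates in these values. The repair libraries of rabbits 6 and 7 stood apart from the others in ways that touch several results. The scaling factors by trimmed mean of M-values (TMM) were 1.43 and 1.31 in them, against 1.1 and 1.11 in the repair libraries of rabbits 5 and 8 and 0.88 to 0.942 in the controls. The 10 highest genes took 21.8% and 21.5% of their counts, against 27.2% and 25.8% in the other repair libraries and 28.1% to 29.7% in the controls. Summed CPM of 10 muscle fibre markers was 9330 in the repair library of rabbit 6 and 29500 in that of rabbit 7, while rabbits 5 and 8 had 56300 and 44300 and the controls 51400 to 66800. All 10 of these markers were detected in every library, as the label of the tissue implies. The part of these 2 libraries in the results was not tested, and counts without them are given where they matter.

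Repair was compared with control in a single limma-voom fit of 33 libraries, in which a gene was called at a Benjamini-Hochberg adjusted p under 0.05. A gene was termed differentially expressed (DE) if its log2 fold change (log2FC, repair minus control) also exceeded 1 in size. At 1 week 797 genes were DE, 6.16% of those tested, of which 611 were higher in repair (4.72% of those tested) and 186 lower (1.44%). The members held 767 of them, 585 higher and 182 lower. Without the fold minimum 1771 genes were called (13.7%), nearly balanced between 881 higher (6.81%) and 890 lower (6.88%). Higher DE genes were mostly low in the control muscle, with a median of 1.9 CPM there against 6.53 CPM in repair, and lower DE genes were mostly well expressed, with 40.3 CPM in control against 16.2 CPM in repair. A log2FC above 2 was reached by 230 of the genes that rose and one below −2 by 25 of those that fell.

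In 709 of the 797 DE genes the 4 repair libraries did not overlap the 4 control libraries, which was also true of 29.4% of all genes tested. All 4 rabbits changed in the same direction for 782 of them. With the rabbit as a block 1506 genes were DE and 3406 were called (26.3% of those tested), 783 of the 797 among the latter, and 14.8% of all genes then rose and 11.5% fell. The number depended on single libraries. Dropping a single control gave 337 (rabbit 5), 323 (rabbit 7) or 476 (rabbit 8), dropping a single repair library gave 480 (rabbit 6) or 394 (rabbit 7), and dropping both shoulders gave 284 (rabbit 5), 321 (rabbit 6) or 106 (rabbit 7). Of all genes 2.35% rose and 1.85% fell without rabbit 6, and 0.666% rose and 0.534% fell without rabbit 7. The split by direction depended on the scaling, since 76.7% of DE genes were higher under TMM and 97.4% (1923 of 1975) when counts were divided by the library total alone, and without the fold minimum 29.8% of all genes were then higher and 1.8% lower. That scaling moved the median log2FC of all genes from 0.05 to 0.47, so a change is to be read relative to the median gene.

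**Figure D1:**
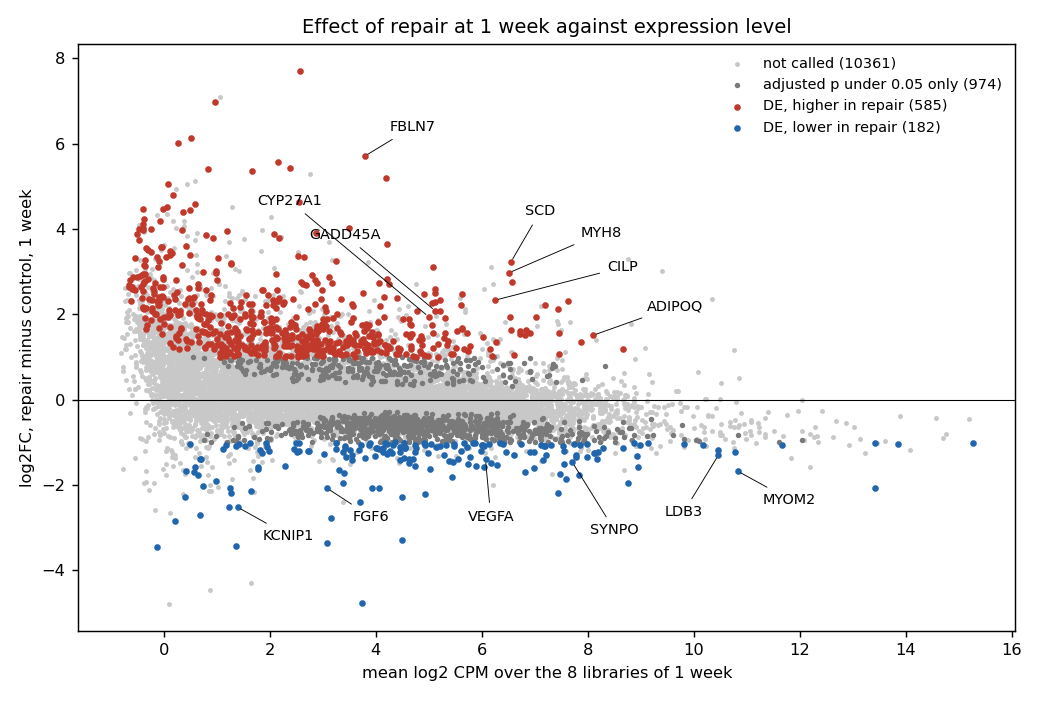
Log2FC of repair against control at 1 week (vertical axis) for each of the 12102 genes, against its average log2 CPM over the 8 libraries (horizontal axis). The 585 DE genes that rose spread widely at low levels, whereas the 182 that fell reach far into the well expressed genes, and 974 more genes were called with a log2FC within 1 of 0.

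Gene symbols, those of human orthologs, were at hand for 3307 members, since only a part of the study's gene names was available. The lists and the rankings of named genes hold only genes with such a symbol, so they are not complete. Genes with a symbol were called about as often (14.2%) as genes without (13.5%). Among DE genes with a symbol, an average of at least 2 CPM (1 on the log2 scale) and no overlap between the groups, the 12 largest rises held 5 genes of the extracellular matrix, 3 of lipid and carbon metabolism and 4 of other roles. FBLN7, a secreted fibulin, had 48.5, 96.5, 132 and 88.9 CPM in repair and 1.21, 2.05, 1.08 and 2.999 CPM in control. Its repair libraries were far above every control library, with a log2FC of 5.71 ± 1.92 (SE, adjusted p = 0.0464 in limma). The remaining matrix genes were LOX, which cross-links collagen, the collagen-binding AEBP1, the protease ADAMTS12 and FNDC1, a protein of fibronectin type III repeats, with log2FC between 2.47 and 2.73. These calls lay near the threshold. Of 12 fits that left out a library or a rabbit, FBLN7 was called in 1 and LOX in 0, with an adjusted p of 0.208 and 0.258 without rabbit 7.

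SCD, the desaturase that makes monounsaturated fatty acids, was listed under 2 identifiers, and reads of such copies could be split between them. The more abundant (ENSOCUG00000001375) had 206, 736, 143 and 304 CPM in repair against 19.1, 48.4, 23.7 and 38.4 CPM in control, with rabbit 6 the highest on both sides. Its log2FC was 3.22 ± 0.67 (adjusted p = 0.00426), and the other copy rose by 1.76 on the log2 scale. PCK2, the mitochondrial enzyme that makes phosphoenolpyruvate, had 23.3, 57.4, 11.6 and 32.5 CPM in repair and 2.14, 3.77, 2.36 and 3.36 CPM in control (log2FC 3.24 ± 0.687, adjusted p = 0.00465). THRSP, a regulator of fatty acid synthesis, rose with a log2FC of 2.45. These 3 genes had their highest repair level in rabbit 6. S100A13, a calcium-binding protein, had 38.03, 11.1, 37.02 and 12.5 CPM in repair and 2.35, 2.495, 2.51 and 5.07 CPM in control, so that rabbits 5 and 7 were well above 6 and 8 (log2FC 2.87 ± 0.534, adjusted p = 0.00243). IGFBP4, which binds insulin-like growth factors, MFSD2A, a carrier of lysophospholipids, and the kinase NRK were the others, with log2FC between 2.51 and 2.75.

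The 12 largest falls were smaller in size and included genes of the excitable and contractile fibre. KCNIP1, an accessory subunit of voltage-gated potassium channels, had 0.898, 0.109, 1.24 and 2.61 CPM in repair against 3.42, 3.05, 4.83 and 6.21 CPM in control (log2FC −2.52 ± 0.528, adjusted p = 0.00452). FGF6, a fibroblast growth factor made by muscle, had 3.19, 1.89, 3.53 and 10.03 CPM in repair and 19.4, 19.7, 11.6 and 14.2 CPM in control. The highest repair value, that of rabbit 8, came close to the lowest control (log2FC −2.07 ± 0.476, adjusted p = 0.00768). VEGFA, the main growth factor of blood vessels, stood at 38.1, 48.3, 30.1 and 50.9 CPM in repair and at 134, 94.6, 138 and 80.4 CPM in control. The groups did not overlap, and the log2FC was −1.40 ± 0.276 (adjusted p = 0.00326). MYOM2 of the sarcomeric M-band, LDB3 of the Z-disc, the actin-associated SYNPO, the sodium-calcium exchanger SLC24A2, the secreted kinase PKDCC, the RNA-binding KHDRBS3, DCUN1D2, LSMEM1 and CUEDC1 fell with log2FC between −1.67 and −1.25.

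Larger changes were seen in genes without a symbol. ENSOCUG00000013778 had 325, 2.26, 94.3 and 74.1 CPM in repair and at most 0.333 CPM in control, with rabbit 6 far below the other repair libraries (log2FC 7.71 ± 2.43, adjusted p = 0.0369). ENSOCUG00000006186 followed with 25.9, 9.68, 59.3 and 13.1 CPM against 0.337 to 0.499 CPM (log2FC 5.58). These rising genes were members only through their repair libraries. Of the falls, ENSOCUG00000015392 had 1.40, 1.42, 2.34 and 6.04 CPM in repair and 14.1, 115, 73.2 and 128 CPM in control (log2FC −4.75), and ENSOCUG00000011323 had 0.291 to 1.42 CPM against 5.01 to 6.998 CPM (log2FC −3.42). The sources used here do not pair these identifiers with a name.

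**Figure D2:**
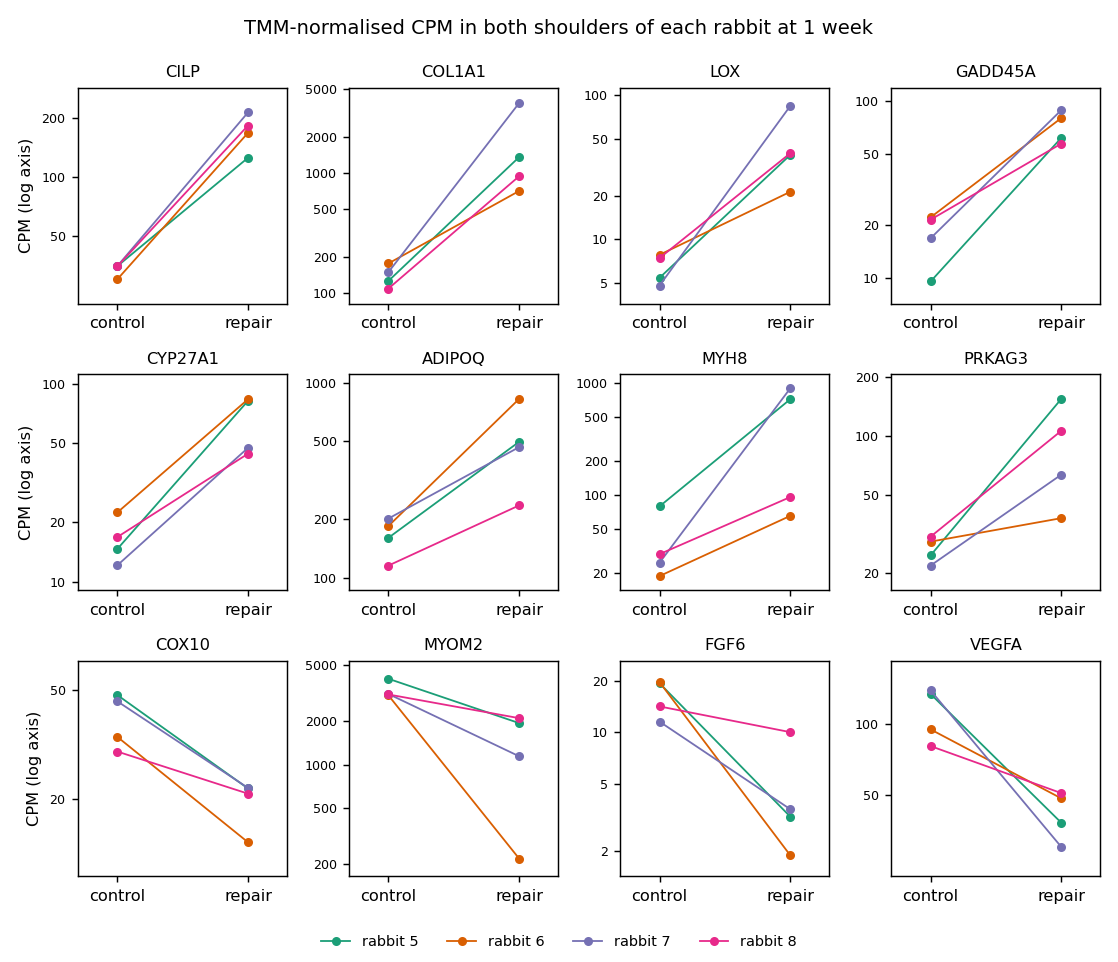
CPM on a log axis of 12 named genes in the repaired and the control muscle of rabbits 5 to 8, with a line joining the shoulders of an animal. Lines of CILP, LOX, COL1A1, GADD45A, CYP27A1 and ADIPOQ rise in all 4 rabbits and those of COX10, MYOM2, FGF6 and VEGFA fall in all 4, while MYH8 rises in all 4 from unequal starting levels so that its groups overlap.

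The lists here and below were chosen with earlier results of these data known, and their direction may follow in part from that choice. Genes of energy production in mitochondria lay lower in repair as a group. Of 31 measured genes for subunits and assembly factors of the respiratory chain, 12 fell and none rose, where 6.88% of all genes tested fell. All 31 had a log2FC below 0, from −1.08 to −0.03, with a median of −0.62 (−0.19 under scaling by library totals) against 0.05 over all genes, and 28 were lower in 4 of 4 rabbits (24.0% of all genes were). COX10, which makes the haem of cytochrome c oxidase, had 21.8, 13.8, 21.9 and 20.8 CPM in repair and 47.8, 33.6, 45.3 and 29.7 CPM in control. The groups did not overlap (log2FC −0.99 ± 0.19, adjusted p = 0.0028). COX4I1, a nuclear-coded subunit of the same enzyme, had 440, 370, 354 and 513 CPM against 810, 723, 653 and 809 CPM (log2FC −0.85 ± 0.226, adjusted p = 0.0174), and COX5A fell by 0.98 on the log2 scale. UQCC1, an assembly factor of complex III, fell by 0.75, and OXA1L, NDUFAF4, COX7A2, NDUFB8, ATP5F1E, BCS1L, NDUFB4 and 1 copy of ATP5IF1 by 0.51 to 0.70. The fall was thus spread over complexes I, III, IV and V. The mitochondrially coded MT-ND4L, under 2 identifiers, had a log2FC of −1.08 that did not pass the test (adjusted p = 0.792).

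Summed CPM of the respiratory chain genes ran from 2570 to 3350 in repair and from 4490 to 5730 in control, and the ratio within a rabbit was 0.571, 0.573, 0.535 and 0.66. Unlike the fibre markers, these sums did not set rabbit 6 apart. The count of falls was 19 with the rabbit as a block (11.5% of all genes fell) and 3 under scaling by library totals (1.8%). It lay between 1 and 12 when single libraries or rabbits were left out. Without rabbit 6 it was 1 (1.85% of all genes fell), and without rabbit 7 also 1 (0.534%). Relative to the median of all genes, the list median was −0.67 under TMM and −0.66 under library totals.

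The machinery that translates mitochondrial messages lay lower too. Of 42 ribosomal proteins, translation factors and tRNA synthetases of the mitochondrion, 10 fell and none rose, 40 had a log2FC below 0 and the median was −0.42. MRPS5 had 25.05, 32.4, 25.01 and 29.9 CPM in repair and 53.5, 40.5, 51.4 and 46.98 CPM in control (log2FC −0.78 ± 0.182, adjusted p = 0.00868). MRPS18B and MRPS30 of the small subunit fell by 0.70 and 0.62, and MTRF1L, which releases the finished chain, fell by 0.83. The other 6 that fell were MRPL43, MRPL46, MRPS15, MRPL48, MRPS35 and the elongation factor GUF1. With the rabbit as a block 19 fell, and without rabbit 7 none did. Scaled by library totals the median was 0.01, none fell and LARS2 and MTFMT (log2FC 0.08 and −0.07 under TMM) rose, although the median then lay 0.47 below that of all genes, as it does under TMM.

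Of 21 genes of the citric acid cycle and of fatty acid oxidation, 5 fell, 1 rose and the median log2FC was −0.54. NNT, which couples the proton gradient to NADPH, had 678, 513, 523 and 649 CPM in repair and 1147, 990, 963 and 1042 CPM in control (log2FC −0.81 ± 0.241, adjusted p = 0.0278). DLD, a shared subunit of the oxoacid dehydrogenases, SLC25A11, the oxoglutarate carrier, ETFA, which passes electrons from fatty acid oxidation, and ACOT13 fell by 0.69 to 0.99. SLC25A20, the carnitine carrier that brings fatty acids into mitochondria, went the other way, with 50.4, 43.8, 60.6 and 66.2 CPM in repair and 29.1, 31.1, 40.5 and 38.1 CPM in control (log2FC 0.67 ± 0.172, adjusted p = 0.0144). With the rabbit as a block 10 fell and 1 rose, and without rabbit 6 or without rabbit 7 none fell. GHITM, a protein of the mitochondrial inner membrane outside these lists, fell from 161 to 247 CPM in control to 89.7 to 104 CPM in repair (log2FC −0.95 ± 0.176, adjusted p = 0.00235).

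Of 19 measured genes of glycolysis and glycogen, 3 fell and 1 rose, and 15 had a log2FC below 0. The median was −0.42, or −0.01 under scaling by library totals, and relative to the median of all genes it was −0.47 and −0.48. UGP2, which makes UDP-glucose for glycogen, had 450, 160, 350 and 327 CPM in repair and 621, 459, 748 and 478 CPM in control (log2FC −0.88 ± 0.245, adjusted p = 0.0213). PPP1R3A, the muscle subunit that brings a phosphatase to glycogen, and TIGAR, a phosphatase that lowers glycolytic flux, fell by 1.12 and 0.97, TIGAR with overlapping groups. PRKAG3, the gamma subunit of AMP-activated kinase in fast muscle, rose, with 155, 38.1, 63.5 and 106 CPM in repair and 24.6, 28.9, 21.8 and 30.6 CPM in control (log2FC 1.62 ± 0.481, adjusted p = 0.0283). The summed list depended on the animal, at 24500, 4180, 11400 and 18600 CPM in repair and 16600 to 21500 CPM in control, so rabbit 6 fell far below the controls and rabbit 5 above them. With the rabbit as a block 7 fell and 3 rose, and none fell without rabbit 6 or without rabbit 7.

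Among 28 genes of the contractile apparatus, 3 fell and 1 rose, with a median log2FC of −0.38. These shares were near those of all genes, of which 6.88% fell and 6.81% rose. Under scaling by library totals the median was 0.04, and 2 fell and 4 rose, when 1.8% of all genes fell and 29.8% rose. LDB3 had 861, 655, 844 and 1379 CPM in repair and 2339, 2174, 2259 and 2131 CPM in control (log2FC −1.30 ± 0.313, adjusted p = 0.0101). MYOM2 had 1948, 220.0, 1142 and 2109 CPM against 3975, 3042, 3112 and 3088 CPM, rabbit 6 being by far the lowest (log2FC −1.67 ± 0.458, adjusted p = 0.0198, and between −2.06 and −0.96 when libraries were left out). SYNM, an intermediate filament protein, fell by 1.02 on the log2 scale. The perinatal myosin heavy chain MYH8 rose, with 721, 65.1, 903 and 95.9 CPM in repair and 79.2, 18.8, 24.8 and 29.5 CPM in control (log2FC 2.97 ± 0.804, adjusted p = 0.019). Its groups overlapped, since the control of rabbit 5 lay above the repair library of rabbit 6, but each rabbit had the higher value on the repaired side.

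Other fibre genes had wide ranges and were not called. TNNT3, the fast troponin T, had 8256, 346, 3656 and 5044 CPM in repair and 6422 to 10770 CPM in control (log2FC −1.57, adjusted p = 0.0993, or 0.0219 with the rabbit as a block), and the log2FC was −0.62 without the repair library of rabbit 6. Over all 28 genes the summed CPM was 48900, 13700, 31800 and 40500 in repair and 52200 to 64200 in control. Every repaired muscle was below every control, with ratios within a rabbit of 0.761, 0.249, 0.56 and 0.777. With the rabbit as a block 6 fell and 1 rose, and without rabbit 7 none did either.

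Of 24 genes of muscle growth and myogenesis, 3 fell and 1 rose, shares near those of all genes. FGF6 (above) fell, and SRF, the factor that drives many muscle genes, fell by 0.49 on the log2 scale. FGFR4, a receptor of the fibroblast growth factors, rose, with 11.4, 31.0, 5.97 and 6.78 CPM in repair and 3.21, 5.49, 3.48 and 5.21 CPM in control (log2FC 1.39 ± 0.43, adjusted p = 0.0338). IGF1, a growth factor for muscle, had 7.59, 11.8, 17.3 and 9.16 CPM in repair and 2.56, 3.77, 3.33 and 3.07 CPM in control. These groups did not overlap, yet the log2FC of 1.78 ± 0.76 was not called (adjusted p = 0.103, or 0.0181 with the rabbit as a block), while 7 of 29 alternatives called it. The myogenic factor MYF6 had a log2FC of 0.40 ± 0.346 and overlapping groups (adjusted p = 0.423). With the block 5 genes of the list fell and 6 rose (11.5% and 14.8% of all genes did). Under scaling by library totals 1 fell and 9 rose, IGF1 and MYF6 among the latter, when 1.8% of all genes fell and 29.8% rose. The list median then lay 0.09 above that of all genes, as it does under TMM. Without rabbit 6 no gene of the list fell or rose.

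Genes of the extracellular matrix lay higher in repair throughout, although most were not called. Of 47 genes of the fibrillar matrix, 7 rose and none fell, while 6.81% of all genes rose. All 47 had a log2FC above 0, from 0.15 to 5.71, the median was 1.56, and 38 did not overlap between the groups (16.1% of all genes were higher without overlap). CILP, a matrix protein of cartilage and tendon, had 125, 168, 214 and 184 CPM in repair and 34.8, 29.8, 34.9 and 34.8 CPM in control. Its log2FC of 2.33 ± 0.51 had the smallest p of the list (adjusted p = 0.0057). LTBP1, which stores latent TGF-beta in the matrix, had 131, 47.4, 98.9 and 52.3 CPM against 19.1, 23.3, 18.5 and 19.8 CPM (log2FC 1.91 ± 0.484, adjusted p = 0.0135). OGN, a small leucine-rich proteoglycan, and MFAP4 of the microfibrils had log2FC of 1.94 and 2.33, and FBLN7, AEBP1 and LOX (above) made up the rest.

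The fibril-forming collagens had larger values with larger errors. COL1A1, a chain of type I collagen, had 1360, 711, 3827 and 943 CPM in repair and 127, 178, 150 and 110 CPM in control. Every repair library was above every control, and rabbit 7 was the highest (log2FC 3.30 ± 1.2, adjusted p = 0.0606, or 0.043 with the rabbit as a block). COL3A1, the chain of type III collagen, had 2493, 1968, 8465 and 1898 CPM in repair and 506 to 636 CPM in control (log2FC 2.37 ± 0.897, adjusted p = 0.0715). The summed list held 9050, 9160, 24900 and 9160 CPM in repair and 2610 to 3310 CPM in control. The number of genes that rose was 30 with the rabbit as a block (14.8% of all genes), 38 with the 8 libraries fitted alone (12.5% of all genes), 14 in edgeR (6.08%), 25 in DESeq2 (8.56%) and 0 without rabbit 7 (0.666%). The sums of rabbits 5, 6 and 8 were nonetheless above every control.

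Of 19 genes of the basement membrane, the sheet around each fibre and vessel, 6 rose and none fell, and all had a log2FC above 0 (median 1.12). COL4A3, a chain of type IV collagen, had 10.4, 5.497, 9.36 and 4.44 CPM in repair and 2.21, 2.495, 2.43 and 1.57 CPM in control (log2FC 1.65 ± 0.282, adjusted p = 0.0012). It was called in all 12 fits that left out a library or a rabbit. The laminin chain LAMA3 and the linker NID2 had log2FC of 1.41 and 1.49, COL4A5 0.76, COL4A1 1.35 and the peroxidase PXDN, which cross-links type IV collagen, 1.47. With the block 11 of them rose, and without rabbit 7 only 1 did. Of 26 matrix proteases and their inhibitors, 6 rose and none fell (median 1.33), all of them metalloproteases or serine proteases. ADAMTS5, which cleaves large proteoglycans, had 8.09, 13.7, 11.7 and 7.97 CPM in repair and 3.78, 5.04, 4.08 and 5.07 CPM in control (log2FC 1.19 ± 0.291, adjusted p = 0.0107). HTRA1, ADAM19, ADAMTS12, ADAMTS3 and ADAMTS16 had log2FC from 1.56 to 2.73. With the block 13 rose, and none did without rabbit 6 or without rabbit 7.

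Markers of stromal cells moved with the matrix. Of 10 markers of fibroblasts and fibro-adipogenic progenitors, 3 rose, and all 10 were higher in 4 of 4 rabbits (27.6% of all genes were). CCDC80, a secreted matrix protein, had 234, 304, 451 and 318 CPM in repair and 60.5, 60.6, 71.2 and 80.0 CPM in control (log2FC 2.22 ± 0.621, adjusted p = 0.0216). OSR1, a transcription factor of these progenitors, and MEDAG, which takes part in fat cell formation, rose with log2FC of 1.29 and 1.27. PDGFRA, the receptor that defines the progenitors, had overlapping groups (log2FC 0.97 ± 0.558, adjusted p = 0.22). The summed level was 941 to 1560 CPM in repair and 525 to 711 CPM in control, and the number that rose was 7 with the block and 0 without rabbit 6 or without rabbit 7.

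None of 6 tendon cell markers was called (5 rose with the rabbit as a block), but they had the largest median of any list, 2.62, and their summed CPM was 214 to 348 in repair against 25.1 to 44.9 in control. THBS4, a thrombospondin of the muscle-tendon junction, had 154, 246, 237 and 229 CPM in repair and 27.5, 16.8, 28.0 and 27.1 CPM in control (log2FC 3.12 ± 1.08, adjusted p = 0.0522, or 0.0144 with the block). KERA and FMOD, proteoglycans of collagen fibrils, and the tendon factor MKX were higher in each repair library than in each control, with log2FC of 3.23, 3.28 and 2.12. The part of tendon or scar tissue in the matrix values was not tested. Of 19 genes of protein folding and export in the endoplasmic reticulum, through which collagen passes, FKBP9 alone rose (log2FC 1.08 ± 0.356, adjusted p = 0.0442), and 5 rose and 1 fell with the block.

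**Figure D3:**
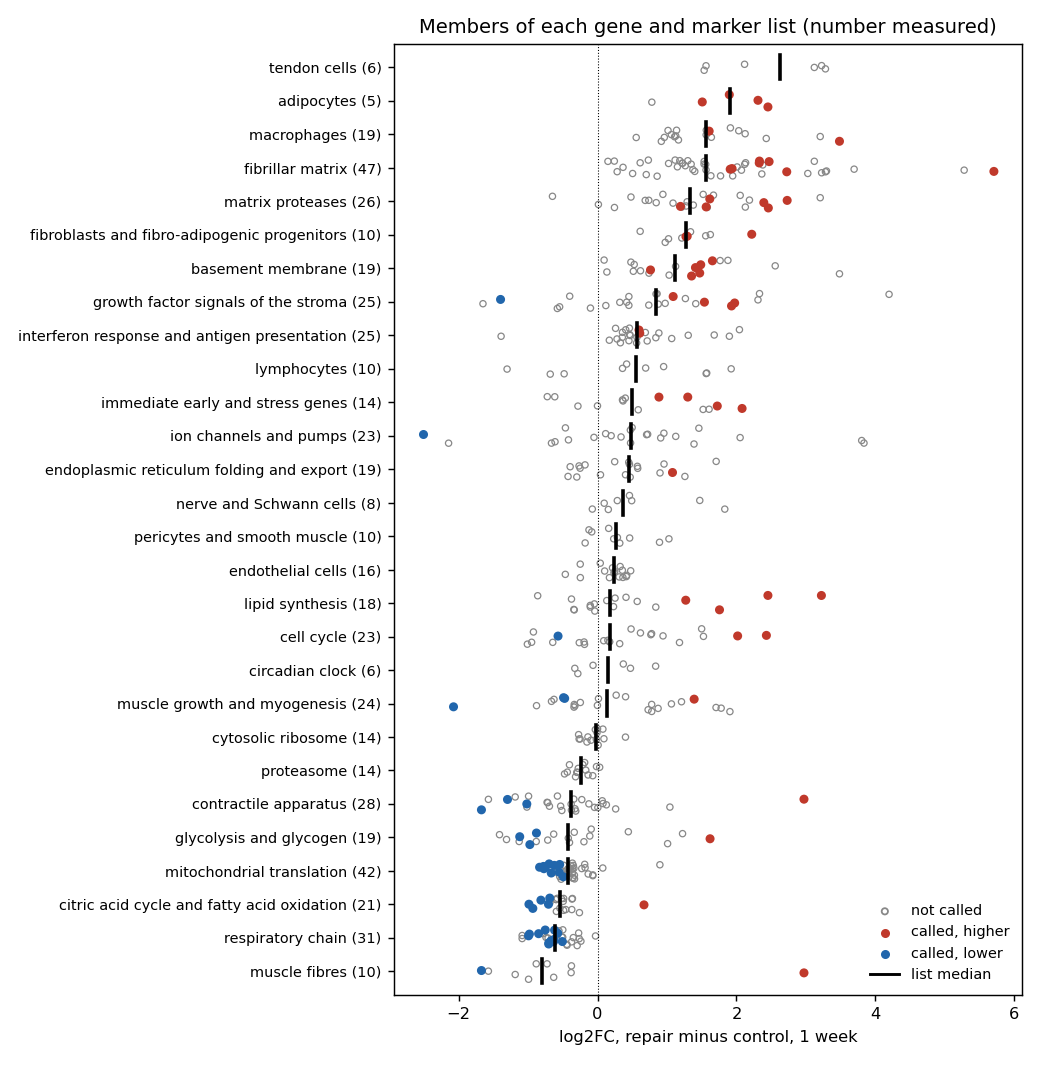
Log2FC of repair against control at 1 week for each member of 28 gene lists and marker lists, 1 line of points per list with its median. Respiratory chain, mitochondrial translation and citric acid cycle genes sit mostly below 0, and fibrillar matrix, basement membrane, protease, tendon cell, adipocyte and macrophage genes mostly above it.

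Fat cell and lipid genes rose in part. Of 5 adipocyte markers 4 rose and the fifth, the fatty acid transporter CD36, had a log2FC of 0.78 (adjusted p = 0.0515, or 0.0352 with the block). ADIPOQ, the hormone adiponectin, had 498, 825, 468 and 236 CPM in repair and 161, 185, 202 and 116 CPM in control. Each repair library exceeded each control (log2FC 1.51 ± 0.466, adjusted p = 0.0338). LIPE, the hormone-sensitive lipase, had 30.9, 90.5, 23.8 and 53.5 CPM against 6.56, 15.4, 14.5 and 11.3 CPM (log2FC 1.90 ± 0.566, adjusted p = 0.0287). HCAR1, the lactate receptor of fat cells, rose from at most 0.277 CPM in control to 0.249 to 1.53 CPM in repair with overlapping groups. It was a member only through its repair libraries, the side where it was high, so its rise follows in part from that choice. THRSP is described above. None of the 5 was called without rabbit 6, which had the highest ADIPOQ and LIPE, without rabbit 7 or without rabbit 8. When libraries or rabbits were left out, the log2FC of ADIPOQ stayed between 1.24 and 1.84. Of 18 genes of lipid synthesis 4 rose, both SCD copies, THRSP and NR1H3, the liver X receptor that turns on lipid synthesis (log2FC 1.27 ± 0.325, adjusted p = 0.0143), and the median of the list was 0.18, or −0.02 without rabbit 6. Of this list 2 rose without rabbit 6, 1 rose without rabbit 7, and 6 rose and 2 fell with the block. Under scaling by library totals 7 rose, when 29.8% of all genes did.

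Signals of the stroma lay mostly higher in repair, though few were called. Of 25 growth factors, antagonists and receptors, 4 rose and 1, VEGFA (above), fell, where 6.81% of all genes rose and 6.88% fell. A log2FC above 0 was found for 19 of them and one below 0 for 6, with a median of 0.84. CHRDL1, an antagonist of bone morphogenetic proteins, had 27.9, 65.6, 47.4 and 29.6 CPM in repair and 11.5 to 18.1 CPM in control (log2FC 1.54 ± 0.486, adjusted p = 0.037). GREM1, another such antagonist, rose with a log2FC of 1.93. PDGFC, a platelet-derived growth factor that acts on fibroblasts, had 7.64, 10.2, 10.5 and 6.59 CPM in repair and 3.85, 3.16, 5.80 and 3.29 CPM in control (log2FC 1.09 ± 0.352, adjusted p = 0.0405). TGFB1 had overlapping groups (log2FC 0.74 ± 0.366, adjusted p = 0.156). With the block 8 rose and 2 fell, and without rabbit 7 none did either.

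Genes of early transcription and stress rose in 4 of 14 cases and fell in none. GADD45A, which is induced by stress and denervation, had 61.9, 80.2, 88.9 and 57.5 CPM in repair and 9.55, 22.0, 16.8 and 21.4 CPM in control. The lowest repaired muscle held more than every control (log2FC 2.08 ± 0.317, adjusted p = 0.000479). FOSL2, a partner in the AP-1 complex, had 10.4, 13.2, 9.15 and 12.6 CPM against 3.92, 5.99, 3.14 and 6.64 CPM (log2FC 1.30 ± 0.303, adjusted p = 0.00845). KLF6, a zinc finger factor, rose by 0.88 on the log2 scale and GEM, a small GTPase that restrains calcium channels, by 1.72. Of the list 6 rose with the rabbit as a block, and between 2 and 4 when libraries or rabbits were left out. The smallest p of all named genes belonged to CYP27A1, a mitochondrial sterol hydroxylase, with 81.8, 83.4, 47.4 and 44.2 CPM in repair and 14.6, 22.3, 12.1 and 16.8 CPM in control (log2FC 1.94 ± 0.248, adjusted p = 5.77e-05).

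Immune genes lay mostly higher in repair but few were called. All 19 macrophage markers had a log2FC above 0 (median 1.56), where 53.7% of all genes did. Of them 2 rose, near the share of all genes (6.81%), and 7 rose with the rabbit as a block, when 14.8% of all genes did. SIGLEC1, an adhesion receptor of macrophages, had 14.6, 8.19, 18.6 and 9.80 CPM in repair and 4.85, 4.49, 3.74 and 3.07 CPM in control (log2FC 1.61 ± 0.467, adjusted p = 0.0259). IGSF6 had overlapping groups and no count in the control of rabbit 8. CD163 had 2.44, 4.84, 10.2 and 5.72 CPM against 1.07, 3.71, 2.73 and 2.499 CPM (log2FC 1.14 ± 1.05, adjusted p = 0.464). The summed markers stood at 72.7, 78.1, 195 and 92.7 CPM in repair and 29.8 to 56.7 CPM in control, rabbit 7 being the highest, and without that rabbit none was called. No lymphocyte marker of 10 was called, and the list was divided. A log2FC above 0 was found for 7 of them and one below 0 for 3, the lowest at −1.3. In 4 of 4 rabbits 4 were higher and 2 lower. CD48, CORO1A and TRBC1 were above every control in each repair library (adjusted p of 0.0858, 0.0865 and 0.09 in limma), where 16.1% of all genes were. With the block 2 rose and 2 fell.

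Of 25 genes of the interferon response and antigen presentation 2 rose, near the share of all genes, and 24 had a log2FC above 0 (median 0.56). PSME1, an interferon-induced activator of the proteasome, had 38.5, 42.1, 44.3 and 33.4 CPM in repair and 21.8, 24.1, 29.8 and 29.1 CPM in control (log2FC 0.60 ± 0.194, adjusted p = 0.0415), and PML, the protein of nuclear bodies, rose by 0.61. With the block 10 rose and 1 fell, and 14 rose under scaling by library totals, when 29.8% of all genes did. Without rabbit 6 the count was 1 and without rabbit 7 it was 0, and the median was 0.25 without the repair library of rabbit 5.

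The remaining lists held few or no calls. Of 23 cell cycle genes, MASTL, a mitotic kinase, and the formin DIAPH3 rose from under 0.6 CPM in every control, with log2FC of 2.02 and 2.43. They too were members only through their repair libraries, so their rise follows in part from that choice. GMNN, an inhibitor of replication licensing, fell by 0.57 with overlapping groups (5 cell cycle genes rose and 3 fell with the block). Of 23 ion channels and pumps, KCNIP1 alone fell and none rose. PIEZO2, a mechanically gated channel, had 9.73, 12.2, 29.9 and 11.4 CPM in repair and 0.855, 0.887, 1.31 and 0.857 CPM in control (log2FC 3.80 ± 1.32, adjusted p = 0.0514), and it was among the 7 that rose with the block (adjusted p = 0.00258). None was called in limma of 14 proteasome subunits (median −0.24), 14 proteins of the cytosolic ribosome (median −0.02), 6 clock genes, 16 endothelial markers, 10 markers of pericytes and smooth muscle, or 8 of nerve and Schwann cells. Under scaling by library totals these medians were 0.18 for the proteasome and 0.38 for the ribosome, but relative to all genes both were below 0 under either scaling. With the block 1 clock gene, 2 pericyte markers and 2 nerve markers rose, and none of the others was called. CDH5, the cadherin of endothelial cells, had a log2FC of 0.17 ± 0.206 (adjusted p = 0.582).

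**Figure D4:**
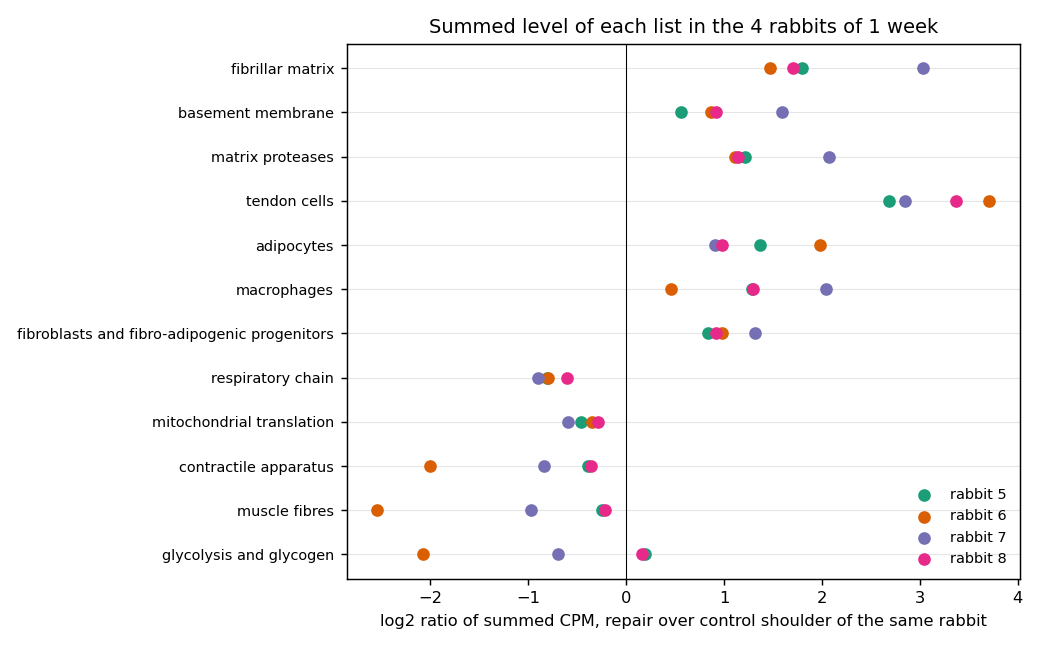
Log2 ratio of summed CPM, repair to control, within each of rabbits 5 to 8 for 12 lists. The 4 rabbits lie close together for the respiratory chain, with ratios from 0.535 to 0.66, and apart for glycolysis, where rabbit 6 has 0.238 and rabbit 5 has 1.14, and rabbit 7 is the highest for the fibrillar matrix with 8.19.

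The 1-week contrast was set beside those of 2, 4 and 8 weeks, of 5, 4 and 4 rabbits. Genes DE at 1 week were chosen on the 1-week contrast, and larger values there follow in part from the choice. The median log2FC of the 611 higher genes was 1.70 at 1 week, 1.33 at 2, 1.08 at 4 and 0.55 at 8 weeks, and that of the 186 lower genes was −1.23, −0.82, −0.59 and −0.38. Lists chosen by function gave other courses. They were drawn up with earlier results of these data known, so their values may also follow in part from that choice. The fibrillar matrix had medians of 1.56, 1.93, 1.30 and 0.70 in that order, the respiratory chain −0.62, −0.50, −0.34 and 0.01, and the adipocyte markers 1.90, 1.43, 2.48 and 0.87.

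Whether the effect itself differed between weeks was tested gene by gene as a difference of contrasts. Libraries of 1 and 8 weeks share a series of titles, and those of 2 and 4 weeks have another. In the comparisons of 1 with 2 and with 4 weeks, here and above, time and title series therefore cannot be told apart. In limma none of 12937 genes was called for 1 minus 2, 4 or 8 weeks. At an unadjusted p under 0.05 there were 694, 620 and 683 genes, about as many as that threshold gives where no effect differs. By edgeR none was called either, and by DESeq2 11, 4 and 3 were. All those to 8 weeks had extreme log2 differences in DESeq2 (−47.4, 38.1 and 15.7). So had others to 4 weeks (−24.2, −20 and −14.4) and to 2 weeks (−24.2), and such values are not read as differences between weeks. The remaining DESeq2 calls lay between −1.09 and 2.66. Since limma called none, the genes with its smallest p are given as values. CYP27A1 had a log2FC of 1.94 at 1 week and 0.34 ± 0.22, 0.52 ± 0.25 and 0.52 ± 0.26 later, a difference of 1.61 ± 0.333 to 2 weeks (adjusted p = 0.361 in limma and 0.00488 in DESeq2). GADD45A followed a like course with 0.69, 0.44 and 0.72 in the later weeks, and the difference to 4 weeks was 1.64 ± 0.457 (adjusted p = 0.824). PRKAG3 was at −0.30, −0.54 and 0.03 after 1.62 at 1 week, and FGFR4 at −0.10, −0.21 and −0.30 after 1.39.

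Other genes had larger values later or a long-lasting one. TRPM7, a channel kinase, had a log2FC of 0.05 at 1 week and 0.84 at 2 weeks, CREB3L2, a factor of secretory stress, −0.39 (0.03 under scaling by library totals) and 0.84, and ANGPT1, an angiopoietin, 0.42 at 1 week and 1.51 at 4 weeks. The adjusted p of these differences was 0.361 or higher in limma, and DESeq2 called that of TRPM7 to 2 weeks (adjusted p = 0.0492). The purine enzyme ATIC had 0.53 and −0.34 at 1 and 2 weeks, a difference that limma called under scaling by library totals (adjusted p = 0.0312), and VPS53, of vesicle tethering, had 0.61 and −0.19 at 1 and 4 weeks. GHITM was at −0.95, −0.61, −0.05 and −0.05 over the 4 time points, TRO, an adhesion protein, at 1.73, 1.35, 0.90 and 0.22, and DCBLD1, a membrane protein, at −0.78, 0.11, 0.01 and −0.23 (adjusted p = 0.0492 in DESeq2 for the difference to 2 weeks). POP5, of ribonuclease P, and ADAT2, a tRNA deaminase, fell at 1 week by 0.49 and 0.87 and had 0.25 and 0.34 at 8 weeks. MYH8, by contrast, had −0.12 at 2 weeks and 3.01 at 4 weeks, and SCD had 3.22, 3.60, 3.73 and 1.39.

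**Figure D5:**
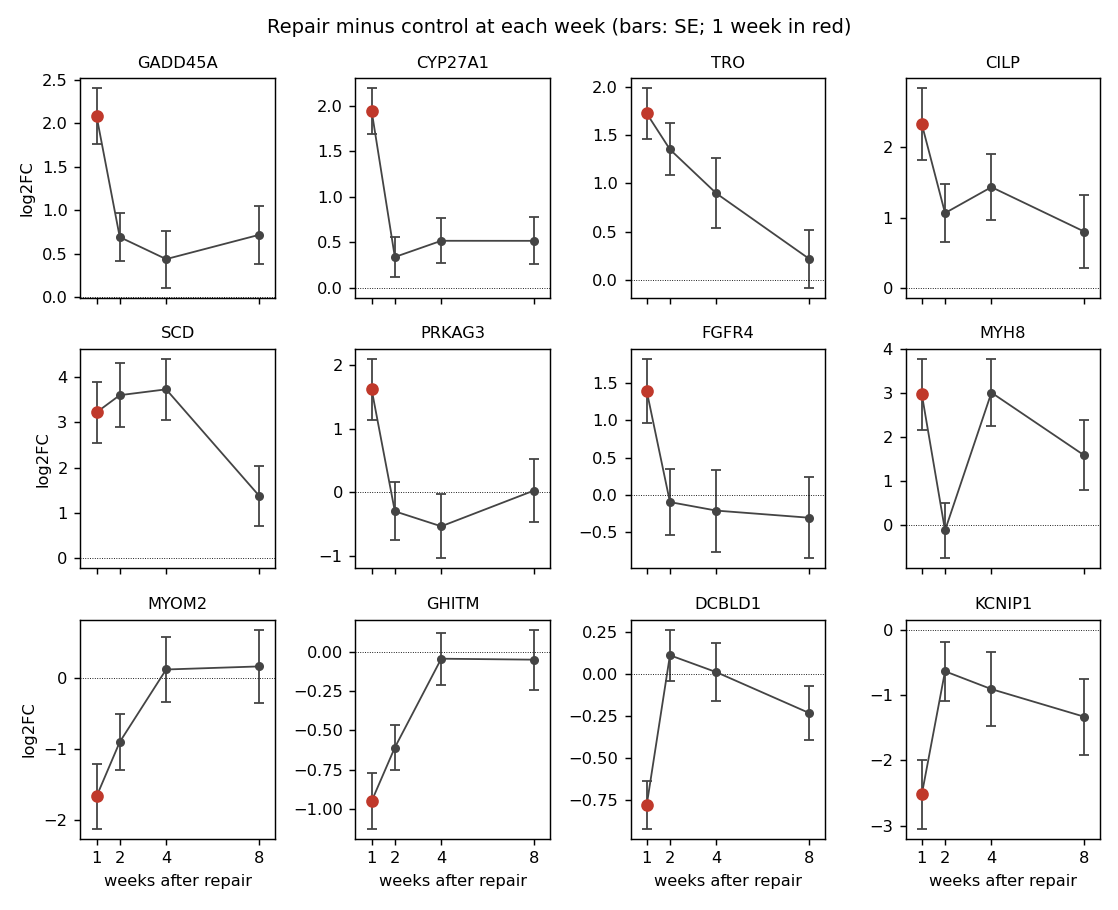
Log2FC of repair against control with SE bars for 12 genes at 1 week (red) and at 2, 4 and 8 weeks after repair. CYP27A1, GADD45A, PRKAG3 and FGFR4 have their highest value at 1 week, GHITM and DCBLD1 their lowest, and MYH8 is as high at 4 weeks as at 1 week, although none of these differences passed the test over all genes in limma. DESeq2 called those of CYP27A1 and DCBLD1 to 2 weeks.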

How the data were processed

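RNA-seq libraries of 17 rabbits (34 shoulders) were grouped by treatment and week from the labels. The authors aligned reads with STAR, counted them per gene with RSEM against the Ensembl rabbit annotation, and deposited unscaled expected counts, which are estimated counts and not whole numbers. FastQC, RSEM, edgeR and limma are named in the submitters' processing notes without versions. Symbols were taken from the part of the study's gene names that was at hand. Positions, lengths and sequences are not given, since the reference at hand belongs to another assembly.

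From these counts, genes with CPM over 1 in at least 1 of 33 libraries were kept (12937), scaled by TMM (edgeR 4.0.16) and fitted with limma-voom (limma 3.58.1, R 4.3.3) with 8 groups of treatment and week and no rabbit block. The study left out 1 repair library of 8 weeks, taken here to be that of rabbit 3, which correlated with the mean of its group at r = 0.704, against at least 0.973 for the others. p-values were adjusted by Benjamini-Hochberg over all genes tested. Counts were rounded for edgeR's quasi-likelihood test and DESeq2 1.42.0. Each right shoulder belongs to the same rabbit as the left, so the numbers pair the samples. Residuals of the shoulders of rabbits 5 to 8 correlated at 0.337, 0.261, 0.210 and 0.353, and each of these 4 repair libraries had its highest such value with the control of its own rabbit. The fit with the rabbit as a block was the stated alternative. Levels are TMM-normalised CPM and were not compared between genes, for want of lengths. Depth of 15359593 to 28395188 counts per library bears on low genes most, and the rabbit, not the read, was the replicate.

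The 12 largest rises and falls, up to 4 members per list by smallest p, 2 unnamed rises and falls, 5 genes per difference between weeks and 11 chosen genes were named, with further members where a count was small. Some members counted in the lists are not reported here by name. The members, the 19 gene lists and 9 marker lists were chosen with earlier results of these data known, and lists are described by counts and medians without a test. Steps were tested on simulated data. Figures were drawn with matplotlib 3.10.9 and tables joined with pandas 2.3.3 in Python 3.11.15.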

Additional observations from a re-analysis of the deposited data

Results flagged for a closer look

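In 20 of 330 groups of 4 values (137 genes and 28 summed lists, repair and control), the highest or lowest library stood apart from the other 3 by a gap past the 95% critical value of Dixon's ratio of gap to range. Chance gives about 1 in 20 such groups. The repair library of rabbit 7 was the highest for COL3A1 (8465 CPM, others 1898 to 2493), for PIEZO2 (29.9 CPM, others 9.73 to 12.2) and for the summed fibrillar matrix (24900 CPM, others 9050 to 9160), matrix proteases (1380 CPM, others 786 to 876) and macrophage markers (195 CPM, others 72.7 to 92.7). It was the lowest for LARS2 (11.6 CPM, others 15.1 to 15.5). The control of that rabbit was the highest for PIEZO2 (1.31 CPM, others 0.855 to 0.887).

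The repair library of rabbit 6 was the highest for NR1H3 (17.9 CPM, others 7.74 to 9.34) and CD36 (322 CPM, others 162 to 181) and the lowest for COX10 (13.8 CPM, others 20.8 to 21.9). The control of rabbit 6 was the highest for MYF6 (218 CPM, others 160 to 168) and FKBP9 (33.2 CPM, others 27.6 to 28.5) and the lowest for CILP (29.8 CPM, others 34.8 to 34.9), THBS4 (16.8 CPM, others 27.1 to 28.0) and the summed proteasome genes (1180 CPM, others 1370 to 1390). In rabbit 8 the repair library was the highest for SRF (42.1 CPM, others 27.7 to 29.2) and ENSOCUG00000011323 (1.42 CPM, others 0.291 to 0.459), and the control for S100A13 (5.07 CPM, others 2.35 to 2.51) and for ATP5IF1 under the identifier that was not called (223 CPM, others 193 to 195). The control of rabbit 5 was the highest for MYOM2 (3975 CPM, others 3042 to 3112).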

How the results depend on the processing

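Under TMM and limma 797 genes were DE (611 higher, 186 lower) and 1771 called. All 34 libraries gave 251 DE (182 higher, 69 lower) and 294 called. The title series of 1 and 8 weeks alone gave 1304 DE (1064 higher) and 3793 called, the rabbit as a block 1506 (1252 higher) and 3406, and sample quality weights 1552 (1382 higher) and 4179. The 8 libraries alone gave 2952 called, and with the block 1639 DE (1367 higher) and 4503 called. A correlation by rabbit gave 2892 called, or 2925 with a minimum in 5 libraries. Library totals without TMM, a setting chosen after seeing the data, gave 1975 DE (1923 higher, 52 lower) and 4091 called. Neither count moved by 1.5 times with rabbits 5, 7 and 8 alone, another setting chosen after seeing the data (841 and 2028), in edgeR (753 and 1568) or in DESeq2 (970 and 2263). Leaving out libraries or rabbits gave 106 to 887 DE, 70 to 660 higher, 36 to 252 lower and 155 to 1763 called.

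The effect of 1 minus 2 weeks had 0 called genes, but 1 with no filter, 11 in DESeq2 and 2 with library totals. For 1 minus 4 weeks the count was 3 with no filter, 4 in DESeq2 and 1 each with the minimum in 5 libraries, the block, the correlation by rabbit, that correlation with the minimum, and library totals. For 1 minus 8 weeks it was 2 with no filter, 3 in DESeq2 and 5 with quality weights. The DESeq2 counts of all these differences include the extreme log2 values given above. Leaving out libraries gave 0 to 2, 0 to 2 and 0 to 1. ENSOCUG00000025906, named after its values were seen, was called for 1 minus 4 weeks with the block (adjusted p = 0.0456, log2 difference 2.20) and was at 0.0664 without it. Of 137 named genes, 3 turned their sign. CREB3L2 went from −0.39 to 0.0308 with library totals, MTFMT from −0.07 to 0.358 with library totals, and LARS2 from 0.08 to −0.0154 with rabbits 5, 7 and 8 alone. When rabbits were left out MTFMT ran from −0.128 to 0.00331, the latter without rabbit 7, and LARS2 from −0.00499, without rabbit 6, to 0.194. The cause of these shifts was not tested. Of the named genes 111 were called, 15 of them in all 12 fits that left out a library or rabbit and 12 in all 29 alternatives, and leaving out rabbit 7 gave the highest adjusted p for most. Block values stand beside the counts they moved. Low genes have the widest errors at this depth, and 4 rabbits limit each test.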
